A study of Mus musculus with 10 samples.

Results

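The mitochondrial genome encodes 37 genes in the mouse, and all 37 rows of the deposited table whose symbol begins with mt- were taken, of 54256 rows in all. They comprise 13 protein genes, 2 ribosomal RNA genes and 22 transfer RNA genes, and every one lies on the mitochondrial chromosome of the GENCODE vM21 annotation (GRCm38, the assembly that mm10 denotes). RNA came from the infundibulum, the funnel at the ovarian end of the oviduct, of wild-type C57BL/6 mice aged 8 to 10 weeks. Treatment lasted 7 days and was recombinant murine prolactin (rmPRL) in one group and saline in the other. There were 5 rmPRL libraries, 4 labelled proestrus and 1 (library 2) diestrus, and 5 saline libraries, all labelled proestrus; each pooled 4 infundibula from 2 animals, so replicates were separate pools and no value belongs to 1 mouse. Values are TPM, a measure of transcript level that is corrected for gene length and scaled to a common total.

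Mitochondrial DNA is transcribed by the polymerase Polrmt with the factor Tfam into long precursors that cover many genes, from both strands. The tRNAs between the genes mark where these precursors are cut, and most of the released mRNAs then receive a poly(A) tail. The proteins made from them are core subunits of complexes I, III, IV and V of oxidative phosphorylation, which makes ATP, and the rRNAs and tRNAs serve the translation of these proteins inside the organelle. In the oviduct, ciliary beating and secretion are ATP-consuming activities. The neighbours mt-Atp8 and mt-Atp6 are known to share an mRNA in mammals, as are mt-Nd4l and mt-Nd4.

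For 7 of the 13 protein genes the annotation holds a nuclear record that is nearly the same in sequence, and this bears on what the deposited values can say. These records (Gm29216, Gm28661, Gm10925, Gm28437, Gm28438, Gm10222 and Gm28439) are unprocessed pseudogenes on the minus strand of chromosome 1, within chr1:24611535-24616197. They are counterparts of mt-Co1, mt-Co2, mt-Atp6, mt-Co3, mt-Nd3, mt-Nd4l and mt-Nd4, in the same order as on the mitochondrial chromosome. Gm28661, Gm10925, Gm28437, Gm10222 and Gm28439 matched their mitochondrial gene without a mismatch over 681, 678, 783, 294 and 876 bases. Gm28438 differed from mt-Nd3 at 1 of 345 aligned bases, and Gm29216 from mt-Co1 at 1 of 483. The first 100 bases of mt-Co2 (chrM:7013-7112, plus strand) and of Gm28661 (chr1:24615466-24615565, minus strand), as long as 1 sequencing read, are shown because they are the same letter for letter; below them stand the start of mt-Nd3 (chrM:9459-9491) and of Gm28438 (chr1:24613087-24613119, minus strand), with the only base that differs in capitals (T3C, counted from the first base of mt-Nd3).
mt-Co2: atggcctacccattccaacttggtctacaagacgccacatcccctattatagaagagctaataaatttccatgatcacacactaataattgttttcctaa
Gm28661: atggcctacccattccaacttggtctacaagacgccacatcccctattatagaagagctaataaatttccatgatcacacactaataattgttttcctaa
mt-Nd3: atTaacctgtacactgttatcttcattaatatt
Gm28438: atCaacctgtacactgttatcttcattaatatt

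Of the stretches of 100 bases in mt-Co2, 99.5% were also found in a nuclear transcript record, as were 99.5% of those in mt-Atp6, 99.9% in mt-Co3, 98.5% in mt-Nd4l and 97.6% in mt-Nd3. The share was 60.8% in mt-Nd4, 30.8% in mt-Co1 and 3.19% in mt-Nd2. It was 0 in mt-Nd1, mt-Nd5, mt-Nd6, mt-Cytb, mt-Atp8 and both rRNA genes. How reads that align to both places were assigned is not stated by the submitters' notes, so the division of a level between a gene and its counterpart is uncertain. A search of the transcript set for matches of at least 60 bases found no counterpart of mt-Atp8. A shorter match would be missed by this search and by the stretches of 100 bases. The 233 bases of chromosome 1 between Gm10925 and Gm28661 (chr1:24614652-24614884) hold no gene of the table. They correspond in position to the 230 bases between mt-Co2 and mt-Atp6 in which most of mt-Atp8 lies. Their sequence was not available for comparison, so whether reads of mt-Atp8 also align there is unknown. The share of 0 for mt-Atp8 covers annotated transcripts and whole stretches of 100 bases only.

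mt-Atp8 (ENSMUSG00000064356.3, chrM:7766-7969, plus strand) is shown whole because it had the largest difference between the groups. Its last 43 bases, in capitals, are also the first bases of mt-Atp6 on the same strand, so reads there can be given to either gene. Gm10925 matched 678 of the 681 bases of mt-Atp6, so most or all of these 43 bases are in that record too.
mt-Atp8: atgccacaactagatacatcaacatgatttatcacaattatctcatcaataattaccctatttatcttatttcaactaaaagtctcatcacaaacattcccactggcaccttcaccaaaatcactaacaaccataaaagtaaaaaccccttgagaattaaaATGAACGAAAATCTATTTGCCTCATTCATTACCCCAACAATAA

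Of the 37 genes, 15 passed the filter of at least 1 TPM in at least 5 libraries, namely all 13 protein genes and both rRNA genes. The other 22 are the tRNA genes, 59 to 75 bases long, of which 21 were listed at 0 in every library; mt-Tw, the tryptophan tRNA, was listed at 2.28 TPM in rmPRL library 1 and at 0 in the other 9. A value of 0 here may be a failed estimate for a gene shorter than a read and says nothing of whether the tRNA was present. As deposited, the highest mean level among the protein genes was that of mt-Atp8 in rmPRL, at 15494 ± 5094 TPM, and that of mt-Co1 in saline, at 13412 ± 451 TPM (SD, n = 5 each). With nuclear counterparts summed in, it was that of mt-Co2 in rmPRL, at 15943 ± 417 TPM, and that of mt-Co1 in saline, at 13704 ± 589 TPM (SD, n = 5 each). The lowest mean level was that of mt-Nd6, at 86.3 ± 6.37 TPM in rmPRL and 83.7 ± 12.1 TPM in saline (SD, n = 5 each). mt-Nd6 is the only protein gene on the minus strand. Members made up 4 of the 10 genes with the highest mean TPM in the table, and their nuclear counterparts made up another 3.

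**Figure D1:**
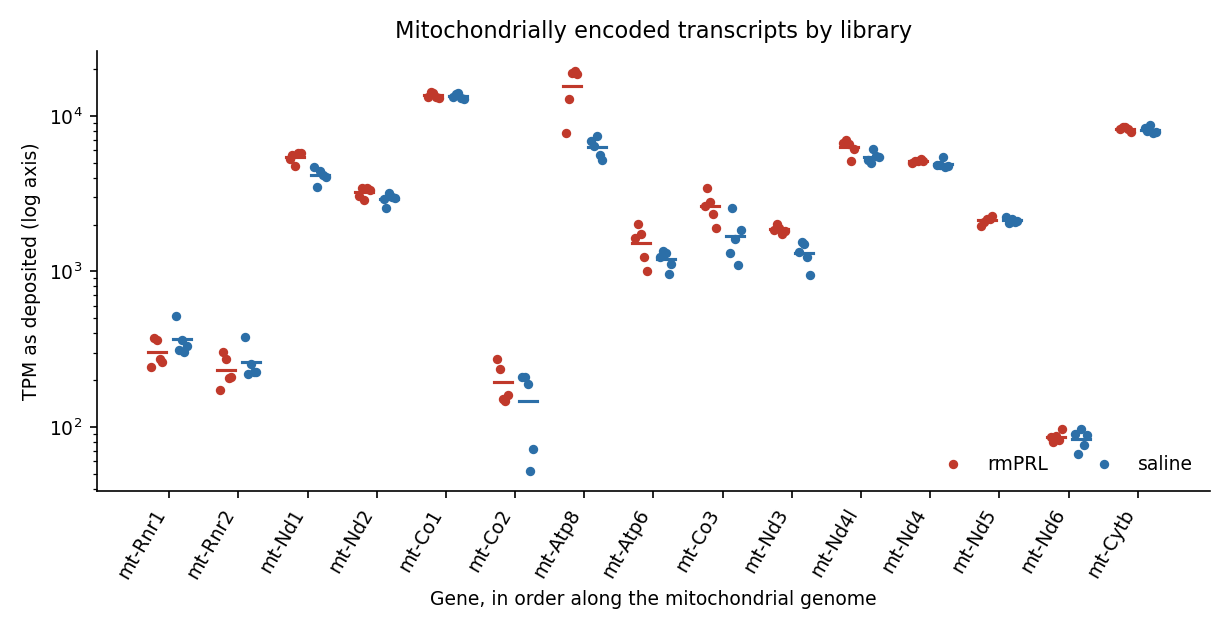
TPM as deposited (log axis) of the 15 mitochondrial genes past the filter, in order along the mitochondrial genome. Points are single libraries, 5 rmPRL (red) and 5 saline (blue), and bars are group means; mt-Atp8 reaches from 7716 to 19482 TPM in rmPRL and from 5218 to 7442 TPM in saline, while mt-Co1, mt-Nd5 and mt-Cytb overlap closely.

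As deposited, the mitochondrial rows took 5.79%, 6.74%, 7.01%, 6.88% and 6.76% of the TPM in rmPRL libraries 1 to 5, against 5.34%, 5.23%, 5.69%, 4.99% and 4.99% in saline libraries 1 to 5. The lowest rmPRL library exceeded the highest saline library, with means of 6.64% ± 0.484 in rmPRL and 5.25% ± 0.292 in saline (SD, n = 5 each). Of the difference of 1.39 percentage points mt-Atp8 made up 0.920, since it alone took 1.55% ± 0.510 of the TPM in rmPRL and 0.630% ± 0.0907 in saline. Without it the share was 5.09% ± 0.224 in rmPRL and 4.62% ± 0.205 in saline (SD, n = 5 each), and the groups overlapped, because rmPRL libraries 4 and 5 lay below saline library 3. With each gene weighted by its annotated length, the mitochondrial rows took 1.67% ± 0.0682 in rmPRL and 1.49% ± 0.0779 in saline (SD, n = 5 each), a difference of 0.187 percentage points, and the groups overlapped slightly; without mt-Atp8 the difference was 0.133. No test was made of these shares, since the members were chosen with earlier results known. The members did not differ alike, with log2 differences of 1.23 for mt-Atp8, 0.02 for mt-Co1, 0.03 for mt-Cytb and -0.26 for mt-Rnr1. In RNA from whole tissue, more cells rich in mitochondria and more mitochondrial RNA per cell cannot be told apart. A part of read assignment or of the estimate for short genes in these shares was not tested.

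The comparison of rmPRL with saline asked which transcripts differed after 7 days of the hormone, and no mitochondrial gene passed the threshold over all 16131 genes tested (limma, Benjamini-Hochberg adjusted p under 0.05; 0.0248% of all genes passed). Of the 15 tested members, 5 were higher in rmPRL at an unadjusted p under 0.05, where 6.14% of all genes were, and 0 were lower, where 9.91% of all genes were. These 5 were mt-Atp8, mt-Nd3, mt-Nd1, mt-Co3 and mt-Nd4l. The groups did not overlap for mt-Atp8, mt-Nd3 and mt-Nd1, all 3 higher in rmPRL, and for none lower; over all genes 1.49% were apart on the higher and 1.57% on the lower side. The split over all genes, 990 higher and 1598 lower, depended on the scaling and was 1458 higher and 1172 lower with TMM scaling. Means of the log values were higher for 12 of 15 members against 43.5% of all genes (13 of 15 against 50.4% with TMM scaling, 11 of 15 against 48.4% under quantile normalization), and the median log2 difference was 0.15 for the tested members and -0.03 for all genes.

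Complex V, the ATP synthase, has its membrane subunits a and A6L encoded by mt-Atp6 and mt-Atp8. mt-Atp8 stood at 7716, 12876, 18721, 19482 and 18677 TPM in rmPRL libraries 1 to 5, against 6847, 6390.4, 7442, 5592 and 5218 TPM in saline libraries 1 to 5. rmPRL libraries 3, 4 and 5 were close together at the top, library 2 was between, and library 1 was only just above the highest saline library. The log2 difference was 1.23 (SE 0.238, 95% interval 0.70 to 1.76, limma adjusted p = 0.119). Without rmPRL library 1 mt-Atp8 passed the threshold (log2 change 1.46, limma adjusted p = 0.00322), and with other single libraries left out the adjusted p reached 0.313. Without rmPRL library 2, the only one from diestrus, the log2 difference was 1.28 (limma adjusted p = 0.239).

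mt-Atp6, which follows it on the same mRNA, was at 1632, 2003, 1742, 1233 and 1008 TPM in rmPRL libraries 1 to 5, against 1239.6, 1357, 1303, 966 and 1113 TPM in saline libraries 1 to 5. The groups overlapped, and rmPRL libraries 4 and 5, among the highest for mt-Atp8, were the lowest of their group for mt-Atp6 (log2 difference 0.32, SE 0.175, limma adjusted p = 0.382). Most of the level stood at its counterpart Gm10925, with 8568 ± 567 TPM in rmPRL and 7408 ± 538 TPM in saline (SD, n = 5 each). mt-Atp6 itself held 15.1% ± 3.61 of the summed level in rmPRL and 13.9% ± 1.25 in saline (SD, n = 5 each). Summed with Gm10925, each weighted by its length, mt-Atp6 was at 9153, 10801, 10525, 10031 and 9758 TPM in rmPRL libraries 1 to 5, against 8756, 8845, 9398, 8102 and 7754 TPM in saline libraries 1 to 5. Only rmPRL library 1 lay within the saline range (log2 difference 0.23, SE 0.0659, limma adjusted p = 0.195).

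The ratio of mt-Atp8 to mt-Atp6 depended on this sum, which was chosen after the data were seen, as were the other sums with nuclear records. As deposited it was 4.73, 6.43, 10.7, 15.8 and 18.5 in rmPRL libraries 1 to 5, against 5.52, 4.71, 5.71, 5.79 and 4.69 in saline libraries 1 to 5, and the groups overlapped. Against the summed mt-Atp6 it was 0.843, 1.19, 1.78, 1.94 and 1.91 in rmPRL libraries 1 to 5, against 0.782, 0.723, 0.792, 0.690 and 0.673 in saline libraries 1 to 5. On this measure the groups did not overlap. Saline libraries lay close together, rmPRL library 1 was just above them, and rmPRL libraries 3, 4 and 5 were the farthest away. Only mt-Atp6 was summed here, since mt-Atp8 has no annotated counterpart to add, so the sides of this ratio were treated unlike.

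**Figure D2:**
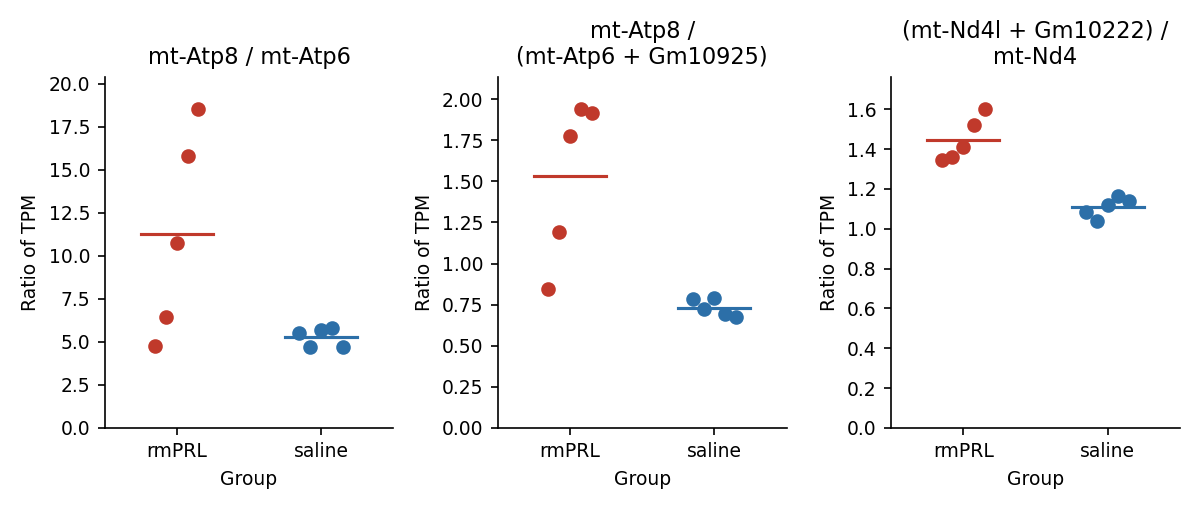
Ratios of TPM between genes that share an mRNA, per library (points) with group means (bars), rmPRL in red and saline in blue. The ratio of mt-Atp8 to mt-Atp6 as deposited (left) overlaps between the groups, while that to mt-Atp6 summed with Gm10925 (middle) runs from 0.843 to 1.94 in rmPRL and from 0.673 to 0.792 in saline; that of mt-Nd4l summed with Gm10222 to mt-Nd4 (right) runs from 1.35 to 1.60 in rmPRL and from 1.04 to 1.16 in saline.

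Complex IV, cytochrome c oxidase, has 3 mitochondrial subunits that form its catalytic core. mt-Co1, which carries the site where oxygen is reduced, was at 13262, 14277, 14048, 13248 and 12955 TPM in rmPRL libraries 1 to 5, against 13275, 13814, 13952, 13101 and 12918 TPM in saline libraries 1 to 5. These ranges nearly coincided (log2 difference 0.02, 95% interval -0.09 to 0.12, limma adjusted p = 0.889), and the sum with Gm29216 differed by 0.03 (limma adjusted p = 0.818).

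mt-Co2, which takes up electrons from cytochrome c, was listed at 273, 236, 151, 146 and 160.1 TPM in rmPRL libraries 1 to 5, against 211, 209, 188, 52.0 and 72.3 TPM in saline libraries 1 to 5. The ratio to mt-Co1 was 0.0142 ± 0.00421 in rmPRL and 0.0108 ± 0.00560 in saline (SD, n = 5 each), and saline libraries 4 and 5 were the lowest (log2 difference 0.57, SE 0.403, limma adjusted p = 0.485). Leaving out saline library 4 gave a log2 difference of 0.25, and leaving out saline library 5 gave 0.37. Gm28661 held nearly all of the summed level, at 15819 ± 422 TPM in rmPRL and 13559 ± 697 TPM in saline (SD, n = 5 each). The sum of both was 15615, 16454, 16341, 15668 and 15637 TPM in rmPRL libraries 1 to 5, against 14148, 13717, 14575, 13061 and 12731 TPM in saline libraries 1 to 5. Every rmPRL library was above every saline library for this sum, by a small margin (log2 difference 0.23, SE 0.0493, limma adjusted p = 0.137). As a ratio to the summed mt-Co1 it was 1.14 ± 0.0311 in rmPRL and 0.996 ± 0.0355 in saline (SD, n = 5 each).

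mt-Co3, the third core subunit, was at 2630.4, 3414, 2772, 2348 and 1894 TPM in rmPRL libraries 1 to 5, against 1305, 2568, 1609.7, 1094 and 1849 TPM in saline libraries 1 to 5. Saline library 2 stood among the rmPRL values, and the log2 difference of 0.67 (SE 0.222) had a limma adjusted p of 0.224. Its counterpart Gm28437 held most of the sum, at 10262 ± 377 TPM in rmPRL and 9653 ± 681 TPM in saline (SD, n = 5 each). The sum stood at 12860.3 ± 690 TPM in rmPRL and 11326 ± 583 TPM in saline (SD, n = 5 each), and the groups did not overlap. Its log2 difference was smaller than that of mt-Co3 alone, at 0.18 with an SE of 0.0545 (limma adjusted p = 0.201).

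**Figure D3:**
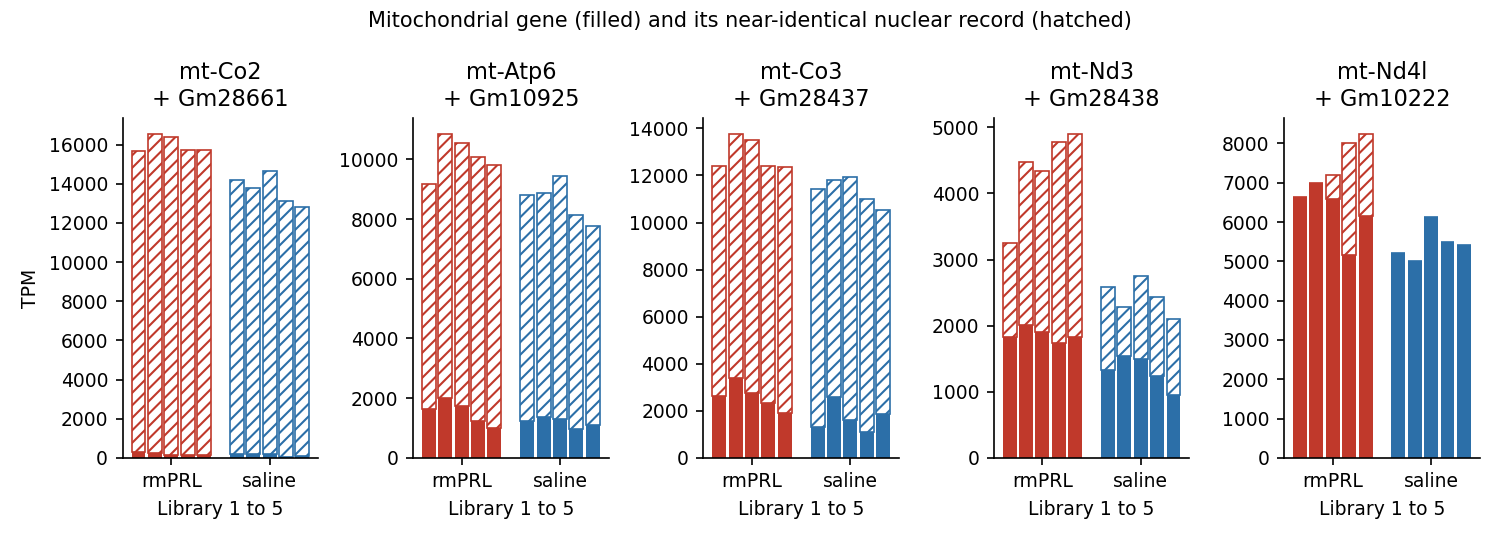
TPM of 5 mitochondrial genes (filled) stacked with their near-identical nuclear record (hatched), unweighted, in rmPRL libraries 1 to 5 (red) and saline libraries 1 to 5 (blue). Nearly all of the mt-Co2 level stands at Gm28661, and Gm10222 is above 0 in rmPRL libraries 3, 4 and 5 only.

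Complex I, NADH dehydrogenase, has 7 mitochondrial subunits, all in its membrane arm. Their summed level was 24155 ± 801 TPM in rmPRL and 20970.4 ± 1314 TPM in saline (SD, n = 5 each), without overlap, but the subunits were not alike. mt-Nd1, at the junction with the matrix arm, was at 5297, 5619, 4728, 5746 and 5737 TPM in rmPRL libraries 1 to 5, against 4682, 3484, 4434, 4182 and 4063 TPM in saline libraries 1 to 5. The groups did not overlap, although rmPRL library 3 was only just above saline library 1 (log2 difference 0.38, SE 0.0850, limma adjusted p = 0.141). With array weights, which give less influence to libraries that deviate more, mt-Nd1 passed the threshold (log2 change 0.42, limma adjusted p = 0.0367). In that fit 1.67% of all genes passed. No near-identical record of mt-Nd1 was found in the nuclear transcripts.

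mt-Nd3 (ENSMUSG00000064360.1, chrM:9459-9806, plus strand) was at 1835, 2011, 1909.5, 1744 and 1821 TPM in rmPRL libraries 1 to 5, against 1328, 1534, 1490.1, 1243 and 951 TPM in saline libraries 1 to 5. Every rmPRL library was above every saline library (log2 difference 0.53, SE 0.115, limma adjusted p = 0.137). With array weights, where 1.67% of all genes passed, the limma adjusted p was 0.0444. Gm28438 was apart as well, at 1419, 2467, 2431, 3029 and 3075 TPM in rmPRL libraries 1 to 5, against 1251, 742, 1258, 1194 and 1157 TPM in saline libraries 1 to 5. Summed, they stood at 3242, 4457, 4319.6, 4747 and 4869 TPM in rmPRL libraries 1 to 5, against 2569, 2270.3, 2737, 2427 and 2098 TPM in saline libraries 1 to 5. This sum was 1.79-fold higher by the means and passed the threshold (log2 change 0.83, SE 0.112, limma adjusted p = 0.0421; with it 0.031% of 16126 genes passed). It did not hold in 11 of 13 further fits of the sum, among them the fit with the replicate number as a block (adjusted p = 0.203); the adjusted p was lowest without rmPRL library 1 (0.0015) and the log2 difference ran from 0.78 to 0.93.

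mt-Nd4l, the smallest subunit, stood at 6642, 7001, 6589.9, 5149 and 6143 TPM in rmPRL libraries 1 to 5, against 5211, 4996, 6130.1, 5482 and 5404 TPM in saline libraries 1 to 5. rmPRL library 4 was below 4 of the saline libraries (log2 difference 0.21, SE 0.0864, limma adjusted p = 0.282). Its counterpart Gm10222 was listed at 0 in rmPRL libraries 1 and 2 and in all 5 saline libraries. In rmPRL libraries 3, 4 and 5 it was listed at 613, 2869 and 2089 TPM. Gm10222 therefore did not meet the filter and was not tested, and no fold can be given against values listed at 0. The sum was 6642, 7001, 7197, 7989.8 and 8211 TPM in rmPRL libraries 1 to 5, and in saline it equals mt-Nd4l itself. All rmPRL libraries were then above all saline libraries (log2 difference 0.44, SE 0.0744, limma adjusted p = 0.0824).

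mt-Nd4, on the same mRNA as mt-Nd4l, differed less. Its level was 4936, 5147, 5097, 5249 and 5122 TPM in rmPRL libraries 1 to 5, against 4811, 4797, 5467, 4711 and 4745 TPM in saline libraries 1 to 5 (log2 difference 0.06, 95% interval -0.05 to 0.18, limma adjusted p = 0.57). Gm28439, its counterpart, was listed at 0 everywhere although 60.8% of the stretches of 100 bases in mt-Nd4 are shared. The ratio of the summed mt-Nd4l to mt-Nd4 was 1.45 ± 0.111 in rmPRL and 1.11 ± 0.0481 in saline (SD, n = 5 each), and its groups did not overlap.

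The remaining subunits of complex I differed little between the groups. mt-Nd2 was at 3055, 3449, 2896, 3443 and 3346 TPM in rmPRL libraries 1 to 5, against 2929, 2568, 3201, 2985 and 2941 TPM in saline libraries 1 to 5 (log2 difference 0.15, SE 0.0723, limma adjusted p = 0.338). mt-Nd5 was at 1951, 2085, 2186, 2158 and 2253 TPM in rmPRL libraries 1 to 5, against 2241, 2038, 2182, 2084 and 2117 TPM in saline libraries 1 to 5, and its 95% interval of the log2 difference ran from -0.12 to 0.11. For mt-Nd6, transcribed from the opposite strand, the values were 86.0, 79.8, 87.2, 82.1 and 96.3 TPM in rmPRL libraries 1 to 5, against 90.2, 66.5, 96.7, 76.4 and 88.6 TPM in saline libraries 1 to 5. Its interval was wider, from -0.16 to 0.27 (limma adjusted p = 0.805 for mt-Nd6 and 0.972 for mt-Nd5). mt-Nd5 and mt-Nd6 overlap by 14 bases on opposite strands, and no source states whether reads were counted by strand.

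Complex III has 1 mitochondrial subunit, cytochrome b, which passes electrons from ubiquinol. mt-Cytb was at 8184, 8499, 8508, 8284 and 7926 TPM in rmPRL libraries 1 to 5, against 8301, 7927, 8774, 7766 and 7828 TPM in saline libraries 1 to 5. These ranges overlapped almost fully (log2 difference 0.03, 95% interval -0.08 to 0.14, limma adjusted p = 0.785).

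**Figure D4:**
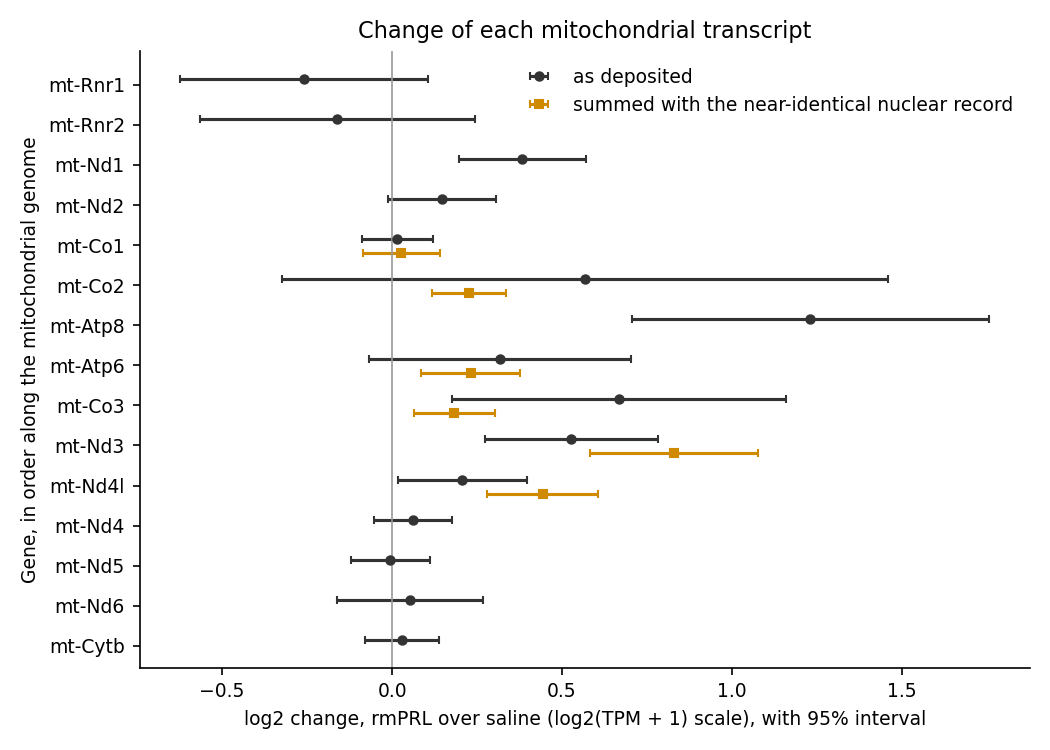
Log2 change, rmPRL over saline, on the log2(TPM + 1) scale with its 95% interval from the limma fit for each mitochondrial gene as deposited (black circles) and, for 6 genes, summed with the near-identical nuclear record (orange squares). mt-Atp8 has the largest change at 1.23; summing narrows the interval of mt-Co2, from -0.32 to 1.46 as deposited, and places mt-Nd3 at 0.83.

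The rRNA genes pointed the other way, within their spread. mt-Rnr1, the small subunit rRNA, was at 244, 375, 362, 273 and 261 TPM in rmPRL libraries 1 to 5, against 516, 311, 364, 302 and 331 TPM in saline libraries 1 to 5. Saline library 1 was far above the others, and rmPRL libraries 2 and 3 lay among the saline values (log2 difference -0.26, SE 0.165, limma adjusted p = 0.437). mt-Rnr2, the large subunit rRNA, also had saline library 1 highest and rmPRL library 2 next, with 171, 305, 272, 206 and 210.5 TPM in rmPRL libraries 1 to 5, against 379, 220.1, 255, 226 and 224 TPM in saline libraries 1 to 5 (log2 difference -0.16, limma adjusted p = 0.672). The library kit selects for mRNA, so these levels are not those of total RNA. Without saline library 1 the log2 differences were -0.13 for mt-Rnr1 and -0.02 for mt-Rnr2. As a share of the mitochondrial TPM the rRNAs made up 0.805% ± 0.144 in rmPRL and 1.19% ± 0.274 in saline (SD, n = 5 each), without overlap; mt-Atp8 is part of the total in this share.

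With the nuclear counterparts summed in, 7 of the 15 tested members were higher at an unadjusted p under 0.05, where 6.14% of all genes were. They were mt-Atp8, mt-Nd3, mt-Nd4l, mt-Co2, mt-Nd1, mt-Atp6 and mt-Co3. The groups were apart for 6 of the 15, all on the higher side, where 1.5% of all genes were apart; mt-Atp6 was the exception among the 7. The mitochondrial share including the counterparts was 10.6% ± 0.728 in rmPRL and 8.51% ± 0.491 in saline (SD, n = 5 each), without overlap. Quantile normalization gives every library the same set of values, so a gene at the very top can then show only a change of rank. Under it the summed log2 differences of these top genes were smaller or turned round. They were 0.02 for mt-Atp6, 0.00 for mt-Co2, -0.14 for mt-Co3 and -0.21 for mt-Co1. Those of mt-Nd3 and mt-Nd4l were 0.79 and 0.28.

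Among the 13 protein genes, the shorter ones tended to have the larger differences. The 3 shortest, mt-Atp8 at 204 bases, mt-Nd4l at 297 and mt-Nd3 at 348, had summed log2 differences of 1.23, 0.44 and 0.83. The 4 longest, mt-Cytb at 1144 bases, mt-Nd4 at 1378, mt-Co1 at 1545 and mt-Nd5 at 1824, had log2 differences between -0.0049 and 0.06. Spearman's rho between length and log2 difference was -0.692 as deposited and -0.835 with the counterparts summed in, as a description across 13 genes that share libraries and, save mt-Nd6, a precursor transcript. mt-Nd6, at 519 bases and 0.05, lay below that order, and mt-Nd1, at 957 bases and 0.38, above it. The 3 shortest lie between mt-Co1 and mt-Nd4, in the stretch with counterparts on chromosome 1. Outside it lie mt-Nd5, mt-Nd6 and mt-Cytb, but also mt-Nd1 and mt-Nd2, and mt-Co1 and mt-Nd4 lie in it in part. Length and place in that stretch were not separated, and summing changed only genes with a counterpart. Nuclear protein-coding genes did not show the same order. The median log2 difference was -0.28 for the 12 tested genes with at most 400 exonic bases (quartiles -0.57 and -0.09). It was -0.04 for the 340 genes above 400 and up to 1000, and -0.01 for the 1550 genes above 1000 and up to 2000. The nuclear genes were not matched to the members in level or near-identical copies, so an effect of length was not tested.

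**Figure D5:**
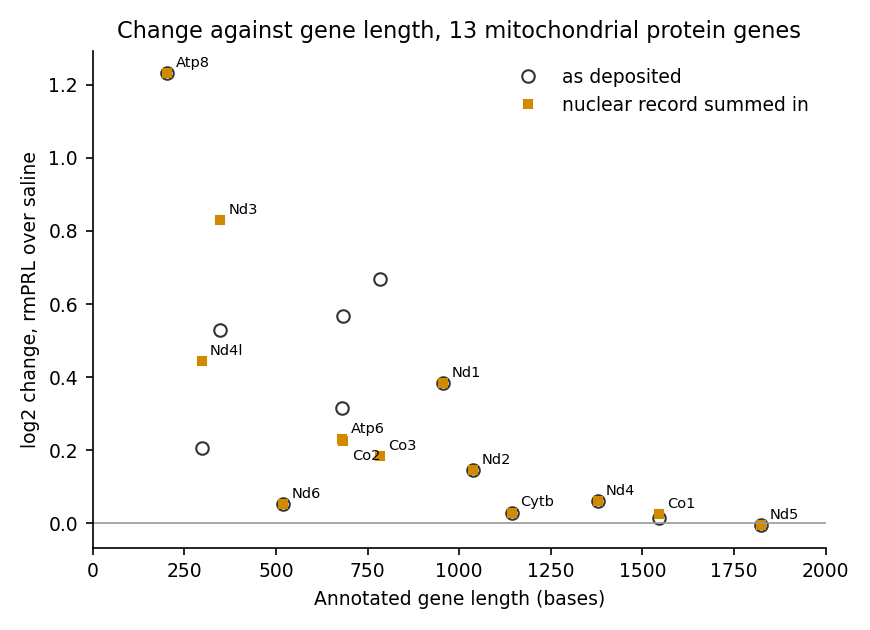
Log2 change, rmPRL over saline, against annotated gene length in bases for the 13 mitochondrial protein genes, as deposited (open circles) and with the near-identical nuclear record summed in (orange squares). The shortest gene, mt-Atp8 at 204 bases, has the largest change at 1.23, and the longest, mt-Nd5 at 1824 bases, has -0.0049.

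The nuclear genes that make and process mitochondrial RNA did not pass the threshold in either direction. Of 18 tested genes of mitochondrial transcription and replication, 0 were higher and 1 was lower at an unadjusted p under 0.05 (limma). Over all genes 6.14% were higher and 9.91% lower at that p. The median log2 difference of the 18 was -0.02. Polrmt was at 14.4 ± 2.16 TPM in rmPRL and 12.0 ± 1.93 TPM in saline, and Tfam at 42.0 ± 1.22 TPM in rmPRL and 45.3 ± 3.51 TPM in saline (SD, n = 5 each; limma adjusted p = 0.339 and 0.392). Primpol, a primase-polymerase of nucleus and mitochondria, was the 1 gene on the lower side, at 6.91 ± 0.988 TPM in rmPRL and 8.52 ± 0.507 TPM in saline (SD, n = 5 each), and Rnaseh1, which cuts RNA paired with DNA, had a log2 difference of 0.15.

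Of 22 genes of mitochondrial RNA processing and stability, 3 were higher and 2 lower at an unadjusted p under 0.05 (limma). After adjustment 0 passed. The median log2 difference was 0.10, and over all genes 6.14% were higher and 9.91% lower at the unadjusted p. Lrpprc, which stabilizes mitochondrial mRNAs, was at 22.4 ± 2.13 TPM in rmPRL and 20.2 ± 2.32 TPM in saline (SD, n = 5 each; limma adjusted p = 0.414). Angel2 had the smallest p and its groups did not overlap (1.57% of all genes were apart on the lower side), at 29.97 ± 1.31 TPM in rmPRL and 35.6 ± 1.96 TPM in saline (SD, n = 5 each). Its log2 difference was -0.24 (limma adjusted p = 0.149). Rexo2, an exonuclease that degrades short RNAs in mitochondria, and Supv3l1, a helicase of the mitochondrial RNA degradosome, had log2 differences of 0.25 and 0.20 (limma adjusted p = 0.241 and 0.252).

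Of 24 genes of rRNA and tRNA modification and ribosome assembly, 3 were higher and 2 lower at an unadjusted p under 0.05 (limma). After adjustment 0 passed. The median was 0.05, and over all genes 6.14% were higher and 9.91% lower at the unadjusted p. Cdk5rap1, which modifies mitochondrial tRNAs, was at 13.6 ± 0.432 TPM in rmPRL and 20.1 ± 4.31 TPM in saline, and Nsun3, a methyltransferase of the mitochondrial methionine tRNA, was at 10.6 ± 1.13 TPM in rmPRL and 13.5 ± 0.881 TPM in saline (SD, n = 5 each; limma adjusted p = 0.152 for both). The groups did not overlap for Cdk5rap1 and did for Nsun3. Pus1, a pseudouridine synthase, lay the other way, also without overlap, at 22.4 ± 2.46 TPM in rmPRL and 17.6 ± 1.71 TPM in saline (SD, n = 5 each; limma adjusted p = 0.189). Over all genes 1.49% were apart on the higher and 1.57% on the lower side.

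Regulators of mitochondrial biogenesis were divided, with 1 of 12 higher and 3 lower at an unadjusted p under 0.05 (limma). After adjustment 0 passed. The median was -0.06, and over all genes 6.14% were higher and 9.91% lower at the unadjusted p. Ppargc1a, the best known coactivator of mitochondrial biogenesis, was at 5.83 ± 0.958 TPM in rmPRL and 7.95 ± 1.51 TPM in saline, and its relative Pprc1 at 14.7 ± 3.52 TPM in rmPRL and 9.38 ± 2.00 TPM in saline (SD, n = 5 each; limma adjusted p = 0.245 and 0.202). The transcription factor Yy1 was at 31.3 ± 1.49 TPM in rmPRL and 36.5 ± 2.00 TPM in saline (SD, n = 5 each; limma adjusted p = 0.167). Its groups did not overlap, and over all genes 1.57% were apart on the lower side.

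The nuclear partners of these complexes did not show a difference like that of mt-Atp8. Of 81 tested nuclear subunits of the respiratory chain and ATP synthase, 6 were higher and 1 lower at an unadjusted p under 0.05 (limma). After adjustment 0 passed. Over all genes 6.14% were higher and 9.91% lower at the unadjusted p. The median log2 difference of the 81 subunits was 0.02. Among these subunits Ndufab1 of complex I was at 208 ± 13.2 TPM in rmPRL and 171 ± 13.6 TPM in saline (SD, n = 5 each, limma adjusted p = 0.152). Ndufa6 was at 246 ± 25.5 TPM in rmPRL and 307 ± 34.8 TPM in saline (SD, n = 5 each, limma adjusted p = 0.194). Ndufa10 had a log2 difference of 0.19. Of the 16 nuclear subunits of complex V, 11 had a higher mean and 1, Atp5g2, was higher at an unadjusted p under 0.05, with a median of 0.08. Of the 4 tested inhibitor and assembly genes, Tmem70 was on the higher side at an unadjusted p under 0.05 (log2 difference 0.18) and the inhibitor Atpif1 on the lower side (-0.14), while Atpaf1 stood at 0.11. The difference between mt-Atp8 and these subunits was not tested.

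Of 14 genes used as a measure of mitochondrial mass, such as Cs, Vdac1 and Tomm20, 4 were higher and 1 lower at an unadjusted p under 0.05 (limma). After adjustment 0 passed, and the median was 0.07. Means of the log values were higher in rmPRL for 12 of the 14, against 43.5% of all genes. For comparison with the lists in this paragraph, 6.14% of all genes were higher and 9.91% lower at the unadjusted p. Phb2, Tomm40 and Tomm20 had log2 differences of 0.18, 0.25 and -0.22. For fission, fusion and mitophagy 1 of 12 was higher and 1 lower on the same count, with a median of -0.05 (limma; 0 after adjustment). These were Dnm1l, the fission GTPase, with a log2 difference of 0.14, and Pink1, the kinase that marks damaged mitochondria, with -0.19, while Sqstm1 stood at -0.15. Of 10 tested genes of the mitochondrial stress response, 3 were higher and 0 lower, with a median of 0.02 (limma; 0 after adjustment). Atf5, a transcription factor of that response, had groups that did not overlap (1.49% of all genes were apart on the higher side), at 46.3 ± 9.28 TPM in rmPRL and 30.7 ± 3.63 TPM in saline (SD, n = 5 each). The log2 difference of Atf5 was 0.56 (limma adjusted p = 0.152), and Psat1 and Atf4 both stood at 0.22. Means were higher for 4 of 12 genes of fission, fusion and mitophagy and 6 of 10 of the stress response. In the lists above they were higher for 17 of 22 (RNA processing), 16 of 24 (modification), 46 of 81 (nuclear subunits), 9 of 18 (transcription) and 4 of 12 (biogenesis).

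Markers of cell types in the tissue also varied between libraries. Those of the oviduct epithelium were present. The list taken as secretory held Ovgp1, Pax8 and the epithelial genes Krt7, Krt8 and Epcam, which are not limited to secretory cells. Its sum, led by Ovgp1, was between 5633 and 9863 TPM in rmPRL and between 8144 and 10994 TPM in saline. Of these 5 genes 4 had a lower mean in rmPRL, 2 of them at an unadjusted p under 0.05 (limma), with a median log2 difference of -0.19. Groups overlapped for Ovgp1, Pax8, Krt7, Krt8 and Epcam alike. At that p 6.14% of all genes were higher and 9.91% lower, for comparison with this and the following lists. The sum of 6 multiciliated markers was between 2966 and 3543 TPM in rmPRL and between 2372 and 3803 TPM in saline, and 2 of the 6 had a higher mean in rmPRL. Sums for 6 fibroblast markers ran from 877 to 1976 TPM in rmPRL and from 538 to 1360 TPM in saline, and 6 of the 6 had a higher mean in rmPRL, 1 of them at an unadjusted p under 0.05. Those for 5 smooth muscle markers, 5 of 5 with a higher mean in rmPRL, ran from 1268 to 2216 TPM in rmPRL and from 709.8 to 2127 TPM in saline, and those for 5 luteal and theca markers from 6.54 to 418 TPM in rmPRL, highest in library 2, and from 12.2 to 363 TPM in saline, highest in library 4. The 4 macrophage markers, all with a higher mean in rmPRL (3 reached an unadjusted p under 0.05), summed to between 30.2 and 47.1 TPM in rmPRL and between 24.4 and 42.0 TPM in saline. The 3 endothelial markers, all with a higher mean in rmPRL and 1 at an unadjusted p under 0.05, summed to between 30.7 and 56.2 TPM in rmPRL and between 23.2 and 42.3 TPM in saline. Sums of 5 blood markers ran from 209.6 to 283 TPM in rmPRL and from 113 to 337 TPM in saline, and those of 5 adipocyte markers from 2.38 to 58.8 TPM in rmPRL and from 4.05 to 24.0 TPM in saline. Of those tested, 4 of 5 blood markers, 3 of 3 adipocyte markers and 1 of 3 luteal and theca markers had a higher mean in rmPRL, 0 of them at an unadjusted p under 0.05. For every summed list the groups overlapped, and no marker passed after adjustment (limma). No marker of these lists was at 0 in every library. Their part in the mitochondrial values was not tested.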

How the data were processed

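Per the labels' protocols, libraries came from a stranded kit that selects mRNA. The submitters' notes, in the series text, name paired reads of 100 bases, quality control by FastQC, trimming by Trimmomatic, alignment by HISAT2 (mm10; SAMtools also listed), featureCounts for counting and DESeq2 for the authors' own comparison. Not given in the sources used here are the versions, the annotation, and how strand and multiply aligned reads were handled. The deposited values are TPM from the authors, named scaled TPM, with the scaling not stated. Columns sum to between 999445 and 999607. TPM keep no depth, so counting error is unknown and no count model was used.

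Genes were kept where 5 or more of the 10 libraries reached 1 TPM, which left 16131, and log2(TPM + 1) was fitted with limma 3.58.1 in R 4.3.3 (trend and robust eBayes, group as the only term, two-sided, Benjamini-Hochberg threshold 0.05). The fit was tested on simulated data. Errors of log2 differences are standard errors. Near-identical nuclear records were found by blastn 2.17.0 against GENCODE vM21 transcripts (at least 90% identity over 60 bases; summed from 99%). P-values measure the spread between pools. Where a symbol had several rows the highest was used.

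The members, lists and tests were chosen with earlier results of these data known. Named were all members, up to 3 genes of each nuclear list by smallest p, and Tfam, Polrmt, Lrpprc and Ppargc1a. Alternatives were pseudocounts, filters, scalings, array weights, a replicate block and leaving out each library; sums with nuclear records were added after the data were seen. Labels give no sequencing batch.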

Additional observations from a re-analysis of the deposited data

Results flagged for a closer look

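Of 68 sets of 5 libraries examined (values of 1 gene, record, sum or ratio in 1 group), 6 held a library whose gap to its nearest neighbour was over 0.71 of the whole range; chance flags about 1 in 20 such sets. In rmPRL, library 1 stood below the others for the mitochondrial share, at 5.79% against 6.74% to 7.01%. It also stood below them for Gm10925, at 7555 TPM against 8789 to 8838 TPM. In saline, library 1 stood above the others for both rRNA genes, with mt-Rnr1 at 516 TPM against 302 to 364 TPM and mt-Rnr2 at 379 TPM against 220.1 to 255 TPM. Saline library 3 was above the others for mt-Nd4, at 5467 TPM against 4711 to 4811 TPM, and saline library 2 was below them for Gm28438, at 742 TPM against 1157 to 1258 TPM.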

How the results depend on the processing

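The count of members past the threshold was 0 as reported, 3 with array weights (mt-Atp8, mt-Nd1 and mt-Nd3, where 1.67% of all genes passed), 1 with nuclear records summed in (mt-Nd3) and 0 to 1 with single libraries left out (mt-Atp8 without rmPRL library 1, where 0.106% of all genes passed). Under quantile normalization 2 members were lower at an unadjusted p under 0.05, where 7.77% of all genes were, against 0 as reported. Log2 differences near 0 turned round. For mt-Co1 it was -0.29 under quantile normalization and ran from -0.0036 to 0.0314 with single libraries left out; for mt-Cytb it was -0.17 under quantile normalization; for mt-Nd6 it ran from -0.0258 to 0.1079 with libraries left out. For mt-Nd5 it was 0.0258 with TMM scaling, 0.0231 under quantile normalization, 0.0182 rescaled without mitochondrial and top genes, 0.0188 with array weights, and from -0.0262 to 0.0257 with libraries left out. Summed with nuclear records under quantile normalization, mt-Co1 was at -0.21 and mt-Co3 at -0.14. At the top ranks this normalization can show only changes of rank, not of level. The cause was not tested. Of 393 results for single genes and sums under an alternative, 363 kept direction and side of the threshold, 14 turned round, 11 lost the threshold (all mt-Nd3 summed) and 5 passed it. Over all genes 4 passed as reported, 0 with no filter, 17 without rmPRL library 1 and 270 with array weights; leaving out single libraries gave 1 to 17.

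The rmPRL minus saline difference of the mitochondrial share was 1.39 percentage points as reported. It was 1.87 relative to genes outside the mitochondrial rows and top genes, 0.187 with genes weighted by length and 2.08 with nuclear records. Without mt-Atp8 it was 0.470, and 0.689, 0.133 and 1.16 under the same alternatives, which change the quantity itself. The difference in the mt-Atp8 to mt-Atp6 ratio was 5.96, and 0.802 with Gm10925 summed in; weighted by length it was 1.79. The replicate numbers did not pair the libraries (correlations of deviations from -0.248 to 0.108, and 0 of 5 rmPRL libraries correlated best with their own number). With the replicate number as a block 0 members passed (0.0124% of all genes did) and 6 were higher at an unadjusted p under 0.05, where 5.41% of all genes were. TPM give no depth, so differences of lowly listed genes could not be judged for counting error.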
